A study of Mus musculus with 18 samples.

Results

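Hippocampal messenger RNA of mice that carry a miR-212 transgene was compared with that of their nontransgenic controls. The 6 samples were taken by genotype from the 18 of the series, 3 labelled tTA::miR212 and 3 labelled miR212 non-transgenic control, all of strain C57BL/6. As the name of the line says, a tetracycline transactivator (tTA) drives the microRNA from a transgene of its own. The controls carry neither, so effects of the transactivator and of the microRNA cannot be told apart. Not given in the sources used here are the promoter of the transactivator, the age and sex of the animals and any doxycycline treatment. For every genotype, cDNA of 6 animals had been pooled into 3 replicates. The deposited columns number the libraries while the labels letter the samples, so each library is called by its number (transgenic 1 to 3, control 1 to 3) and was tied to no single letter.

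MicroRNAs guide a silencing complex to messages that hold a match to their seed, the bases 2 to 8 from the 5′ end, which lowers the stability or translation of those messages. Mir212 and Mir132 lie next to each other on chromosome 11 and are transcribed together after neuronal activity through the transcription factor CREB. In the hippocampus the pair is known for shaping dendrites, spines and memory. The following mature sequences (RefSeq, mouse build GRCm38.p6) carry the seed in capitals and show which messages the transgene could address.
mmu-miR-212-3p: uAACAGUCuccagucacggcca
mmu-miR-132-3p: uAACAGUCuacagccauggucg
mmu-miR-212-5p: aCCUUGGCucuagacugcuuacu
miR-212-3p (chr11:75173443-75173464, plus strand) has the seed of miR-132-3p and differs from it at 5 of 22 positions, all outside the seed. Both therefore match the same 7 bases, GACTGTT, in a message. miR-212-5p, from the other arm of the hairpin, has a seed of its own.

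Sites for the shared seed are shown for reported target genes of the microRNA pair and for genes among the 30 with the smallest p, because their values are given below. Each is a stretch of the 3′ untranslated region that GENCODE M1 gives for the transcript used here (build NCBIM37, the same assembly as mm9). Capitals mark the match to bases 2 to 8 and, in the 8mers, the A that follows it. The first 6 are 8mers of reported targets, and the rest belong to genes with small p.
Usp9x: tattaatgtttGACTGTTAattcttaagca
Zeb2: acctcaagaggGACTGTTAaatacaatgta
Itpkb: tttcctcttggGACTGTTAcatcccctgcc
Dnajb14: ctgaaatcttgGACTGTTAatgacctactg
Ep300: atcactgtataGACTGTTAaatttgatttc
Foxo3: aacccagcagaGACTGTTAgcagccctggc
C530008M17Rik: ctgaaccttcaGACTGTTAagaatcaatgt
Hrk: cttatattgtgGACTGTTtggatgtccac
Synm: aaggagtgggtGACTGTTcgtctgtctat
Prosapip1: ccatgactggtGACTGTTtaacaagctgt
Sgk1: atttatgtgtaGACTGTTttgtaagatat
The capitals of Usp9x lie at chrX:12756965-12756972, plus strand, those of Zeb2 at chr2:44842766-44842773, minus strand and those of Foxo3 at chr10:41905968-41905975, minus strand. Those of Itpkb lie at chr1:182354853-182354860, plus strand, those of Dnajb14 at chr3:137571552-137571559, plus strand and those of Ep300 at chr15:81482446-81482453, plus strand. Among the genes with small p, the site of C530008M17Rik lies at chr5:77301400-77301407, plus strand, that of Hrk at chr5:118638149-118638155, plus strand, that of Synm at chr7:74875105-74875111, minus strand, that of Prosapip1 at chr2:130458891-130458897, minus strand and that of Sgk1 at chr10:21719253-21719259, plus strand. Synm has another 7-base match at chr7:74875307-74875313, minus strand. All of these bases were read back from the genome sequence at the stated positions. The deposited span of the Synm transcript is chr7:74877106-74904579, minus strand, so both Synm matches lie beyond its 3′ end.

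Counts summed to 3279620, 3140536 and 3173371 in the control libraries and 3146667, 3739682 and 3619791 in the transgenic ones, over 11706 transcripts of 4618 gene symbols. Transcripts of a gene share reads, so for each symbol the 1 transcript highest in mean count over the 6 libraries stood for the gene, which left 1299376 to 1544926 counts per library. Levels below are CPM, the counts scaled to these totals with TMM factors. Neither Mir212 nor Mir132 is among the listed genes, so the labels are not checked by the targeted gene. Its 7 measured neighbours on chromosome 11 lay at log2 fold changes of -0.21 (Sgsm2) to 0.18 (Rpa1), none with an unadjusted edgeR p under 0.05. Defining markers of hippocampal tissue were present, with Camk2a of excitatory neurons at 4507 CPM and Gfap of astrocytes at 564 CPM in controls on average. No listed marker of ependymal or blood cells was measured.

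Single libraries stood apart in ways that the genotype labels do not give. The level of Xist, which coats 1 X chromosome in female cells, was 761, 1305 and 1363 CPM in control libraries 1, 2 and 3 and 3.07, 703 and 129.9 CPM in transgenic libraries 1, 2 and 3. Every transgenic value lay below every control, and transgenic library 1 held almost none. Tsix, which is transcribed across Xist on the other strand, had 0.00, 97.9 and 18.7 against 103, 169 and 195 CPM. The sources used here do not give the strand setting of the counting, so reads of this pair may be shared.

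Marker genes of tissues next to the hippocampus differed between single libraries. Ttr, the transthyretin gene that defines choroid plexus epithelium, had 800.1, 39.7 and 671 CPM in the transgenic and 779.9, 713 and 264 CPM in the control libraries. Kl, the klotho gene of the same epithelium, had 52.2, 7.68 and 79.0 against 58.0, 54.1 and 19.9 CPM, and all 5 measured markers of it summed to 1616, 366 and 1478 against 1621, 1428 and 691 CPM. Transgenic library 2 and control library 3 were thus low in these transcripts. Transgenic library 2 was also high in genes of thalamus and habenula. The thalamic kinase gene Prkcd had 25.3, 80.6 and 31.5 against 29.3, 24.0 and 22.9 CPM and the transcription factor gene Zic1 46.0, 138 and 67.6 against 35.9, 28.6 and 33.6 CPM. Their 7 measured markers summed to 719.5, 1013 and 768 against 689.6, 664 and 699 CPM, whereas 5 cortical markers summed to 649, 364 and 524 against 558, 551 and 622 CPM and were lowest in transgenic library 2. Control library 3 was high in genes of the striatum, with Scn4b at 40.3, 63.4 and 173 CPM in controls 1, 2 and 3 against 52.2, 61.4 and 52.2 in transgenic libraries. In bulk tissue, fewer cells of a type and less RNA per cell cannot be told apart.

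Transgenic library 3 differed in another set of transcripts, which was chosen after its values were seen. The noncoding RNA Meg3 had 5456, 5844 and 1944 against 5477, 5280.2 and 4773 CPM, and Snhg11, a snoRNA host, 1936, 1951 and 641 against 1873, 1972 and 1878 CPM. The splicing kinase gene Clk1 had 109.7, 99.2 and 44.2 against 122, 99.8 and 90.1 CPM. Leng8 (349.8, 470.3 and 135 against 426, 374 and 333 CPM) and the pseudogene Pisd-ps1 (167, 113 and 26.8 against 140.1, 116 and 147 CPM), whose reads may be shared with its parent gene, were low in the same library. In the opposite direction, the inositol transporter gene Slc5a3 had 49.1, 45.4 and 89.7 against 46.2, 46.4 and 38.9 CPM. Across all genes, transgenic library 3 was the highest of the 6 libraries for 1169 and the lowest for 1077 of 4618, the most of any library. It was lowest by more than 0.5 on the log2 scale for 76 genes, against 0 to 15 for each other library.

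**Figure D1:**
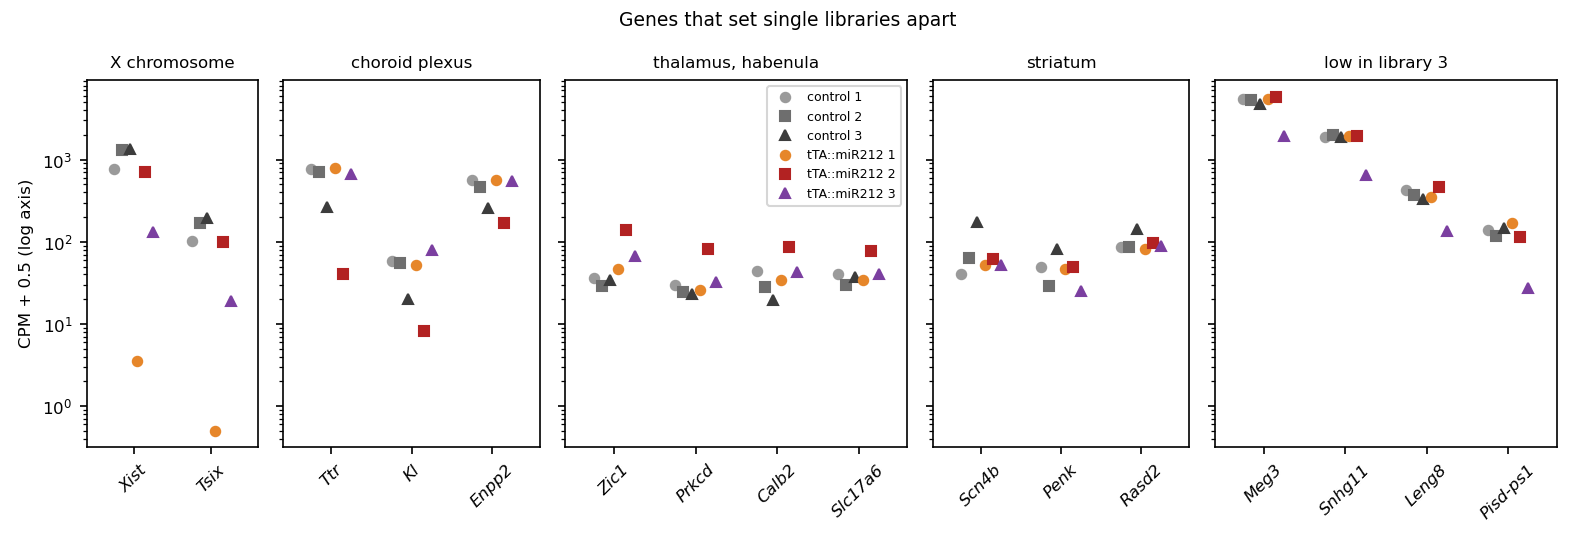
CPM plus 0.5, on a log axis, of genes that set single libraries apart, with 1 point per library (grey for the 3 controls, coloured for the 3 tTA::miR212 libraries). Xist lies at 3.07 CPM in transgenic library 1, Ttr at 39.7 CPM in transgenic library 2 and Meg3 at 1944 CPM in transgenic library 3.

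No gene passed the comparison of the transgenic with the control libraries. Of 4618 genes tested, edgeR's quasi-likelihood test called 0 (0%) at a Benjamini-Hochberg adjusted p under 0.05, and DESeq2 and limma-voom also called 0. At an unadjusted edgeR p under 0.05 there were 261 genes (5.65%), 116 of them higher (2.51%) and 145 lower (3.14%) in tTA::miR212, while DESeq2 had 116 in all. The 3 transgenic values lay above all 3 controls for 252 genes (5.46%) and below them for 274 (5.93%), together 526 or 11.4%. Groups of genes below are read against these shares, and no fold change from the fit of all 6 libraries passed adjustment over all genes. The median log2 fold change of all genes was 0.00.

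The 15 lower and 15 higher genes with the smallest p are given first, as single genes. Of the lower ones, Ptprn2, which encodes the dense-core vesicle protein phogrin (chr12:117724306-118515266, plus strand, mm9), had 219, 236 and 249.7 CPM in the 3 transgenic libraries and 295, 336 and 405 CPM in the 3 controls, here and below in the order of their numbers, a log2 fold change of -0.55 (SE 0.11, edgeR adjusted p = 0.416). The highest transgenic value stayed below the lowest control. Cyb561, a cytochrome of the vesicle membrane that supplies electrons for peptide and catecholamine synthesis (chr11:105795016-105814650, minus strand), had 82.1, 84.5 and 79.0 against 112, 111 and 114 CPM, with both groups narrow and apart (-0.45 (SE 0.11, edgeR adjusted p = 0.675)). Doc2b, a calcium sensor for transmitter release, had 65.2, 72.9 and 79.0 against 106, 98.2 and 99.3 CPM (-0.48 (SE 0.12, edgeR adjusted p = 0.715)).

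Of the other lower genes with small p, Nrgn encodes neurogranin, which holds calmodulin in dendritic spines (chr9:37352550-37360294, minus strand). It had 989, 804 and 819 against 1041, 1105 and 1140.1 CPM, with transgenic library 1 close to the lowest control and the other two well below (-0.33 (SE 0.08, edgeR adjusted p = 0.575)). Ddn, the gene of the dendritic protein dendrin, had 2334, 2283 and 2381 against 2553, 2673 and 2659.7 CPM (-0.17 (SE 0.05, edgeR adjusted p = 0.715)), a small difference between narrow groups. Prosapip1, a scaffold gene of the postsynaptic density, had 380.5, 329 and 311 against 412, 445 and 573 CPM (-0.49 (SE 0.12, edgeR adjusted p = 0.715)), with control library 3 the highest. Rtn4r, the Nogo receptor gene that limits axon growth, had 154, 111 and 134 against 163, 194 and 176 CPM (-0.42 (SE 0.12, edgeR adjusted p = 0.715)).

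The remaining lower genes had other roles. The largest log2 fold change among them was that of Dsp, a desmosome gene that marks dentate granule cells, at 33.0, 45.4 and 43.5 against 66.0, 78.1 and 67.2 CPM (-0.78 (SE 0.20, edgeR adjusted p = 0.715)). Slc2a1, the glucose transporter gene of vessels and glia, had 114, 101 and 128 against 139, 159 and 148 CPM (-0.38 (SE 0.11, edgeR adjusted p = 0.72)). Hipk4, a kinase gene, had 82.8, 72.3 and 78.3 against 101, 111 and 122 CPM (-0.52 (SE 0.12, edgeR adjusted p = 0.575)). Nov, which encodes a matrix-associated signalling protein and marks CA1 neurons, lay at -0.30 on the log2 scale, Igfbp4, a binder of insulin-like growth factors, at -0.38 and Fam163b at -0.36. Sgk1 and Bhlhe40, the last of these 15 genes, belong to lists given below. All 15 had groups that did not overlap.

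Among the 15 higher genes, Lrrn2, which encodes a leucine-rich repeat membrane protein of neurons (chr1:134776850-134836582, plus strand), had 301, 392 and 378 against 273, 262 and 229.8 CPM (0.49 (SE 0.10, edgeR adjusted p = 0.461)). Transgenic library 1 was the lowest of its group and still above each control. Chd3, a subunit gene of the NuRD chromatin remodelling complex, had 1751, 1857 and 1847 against 1633, 1635 and 1497 CPM (0.20 (SE 0.06, edgeR adjusted p = 0.715)). Its 10 transcript entries had log2 fold changes of 0.17 to 0.30, but they share reads. Hrk, which encodes a BH3-only promoter of cell death, had 163, 196 and 202 against 147, 156 and 113 CPM (0.43 (SE 0.12, edgeR adjusted p = 0.715)), and Wasl, the gene of the actin regulator N-WASP, 213, 201 and 197 against 167, 179 and 153 CPM (0.29 (SE 0.10, edgeR adjusted p = 0.802)). C530008M17Rik had 282, 294 and 306 against 224, 261 and 212 CPM (0.34 (SE 0.09, edgeR adjusted p = 0.715)).

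Also among the 15 higher genes, Gpr56, an adhesion receptor gene, had 129, 158 and 188 against 128, 109.8 and 108 CPM (0.46 (SE 0.13, edgeR adjusted p = 0.715)), with transgenic library 1 within 1 CPM of control library 1. Sox2, a transcription factor gene of progenitors and astrocytes, had 81.3, 103 and 69.6 against 57.2, 63.4 and 63.4 CPM (0.47 (SE 0.15, edgeR adjusted p = 0.802)). Slc6a11, the gene of the astrocytic GABA transporter GAT3, had 188, 253 and 256 against 183, 172 and 189 CPM, so that transgenic library 1 lay among the controls. The groups also overlapped for Tsc22d1, at 431, 549 and 559 against 397, 417 and 436 CPM, and for the carbonic anhydrase gene Car4, at 59.8, 92.8 and 81.7 against 60.2, 49.5 and 42.0 CPM. The other genes of this set were Slc35f1 (0.48), Tnks1bp1 (0.33), Nrip3 (0.32), Synm (0.36) and Aqp4 (0.61), each with transgenic values above every control.

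**Figure D2:**
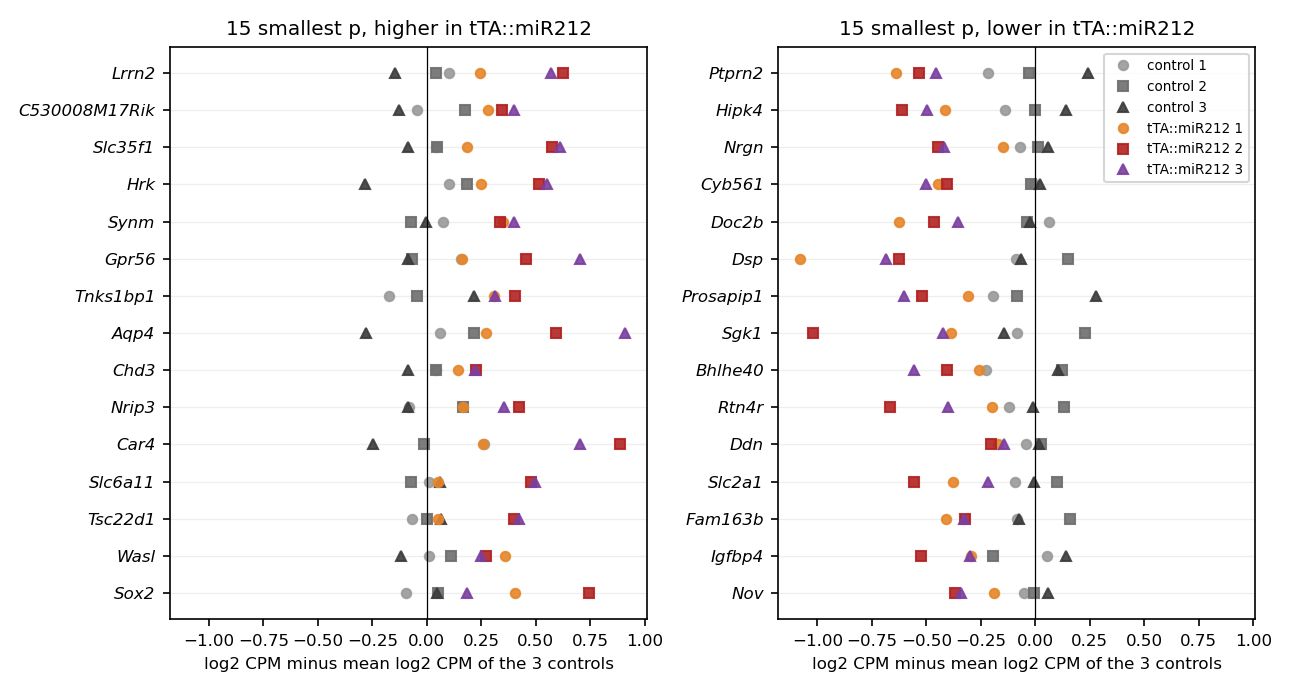
Log2 CPM of each library minus the mean log2 CPM of the 3 controls, for the 15 higher (left) and 15 lower genes (right) with the smallest p, 1 point per library. For Slc6a11, Tsc22d1 and Car4 transgenic library 1 lies among the controls, and for the 15 lower genes no transgenic point reaches a control.

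In the calcium and calmodulin pathway most genes lay slightly below 0. CaMKII, the kinase of synaptic plasticity, is activated by calmodulin, whose supply in spines is set by neurogranin. Of the 23 measured genes of this pathway (24 listed), 20 had a log2 fold change below 0, with a median of -0.10 against 0.00 over all genes. Beside Nrgn, those lower at an unadjusted p under 0.05 were Ppp1r1a, a phosphatase inhibitor gene, at 66.0, 62.1 and 58.9 against 75.6, 77.3 and 87.1 CPM (-0.36 (SE 0.14, edgeR adjusted p = 0.819)), Pcp4, a calmodulin regulator, and Camkv, a kinase-like gene. Pcp4 had 107, 105 and 92.4 against 109, 121 and 159 CPM and Camkv 891, 965 and 868 against 1031, 1001 and 973 CPM. These are 4 of 23 genes, where 3.14% of all genes were lower in this way. Without transgenic library 3 there were 2, where 139 of all 4618 genes were lower. Without control library 3 there were also 2, where 66 were, and without transgenic library 1 there were 7, where 271 were. In the fit of all libraries the calcineurin gene Ppp3cb was the only one higher at that threshold. It had 332, 322 and 347 against 268, 302 and 317 CPM (0.18 (SE 0.08, edgeR adjusted p = 0.876)).

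The calmodulin genes Calm2 and Calm3 had log2 fold changes of -0.13 and -0.10, neither with an unadjusted p under 0.05. The kinase subunits had -0.07 for Camk2a, -0.08 for Camk2b, -0.13 for Camk2d and -0.19 for Camk2g. Camk2n1, which encodes an inhibitor of the kinase and is a reported target, had 1951, 1112 and 1139.9 CPM against 1647, 1897 and 2429.8. Its transgenic library 1 lay between the controls while libraries 2 and 3 lay below them (-0.51 (SE 0.31, edgeR adjusted p = 0.919)). The count below 0 was 19 or 20 of 23 whichever library was left out, and 19 without transgenic library 2 and control library 3 together. The summed level was 19769, 18065 and 18297 CPM in the transgenic libraries against 19516, 20480.3 and 21506 in controls, so that transgenic library 1 overlapped control library 1 and control library 3 was highest. Of 13 measured markers of excitatory neurons, Camk2a and Nrgn among them, 8 lay below 0 and 3 were lower at an unadjusted p under 0.05 (Nrgn, Itpka and Lmo4), with a median of -0.08. Relative to the control mean, the median of these markers on the log2 scale was -0.00, -0.15 and -0.13 in transgenic libraries 1, 2 and 3, and that of the pathway -0.05, -0.14 and -0.17. Their sum was 11816, 10928 and 11229 against 11569, 12188 and 12095 CPM. Their part in the values of the pathway was not tested.

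**Figure D3:**
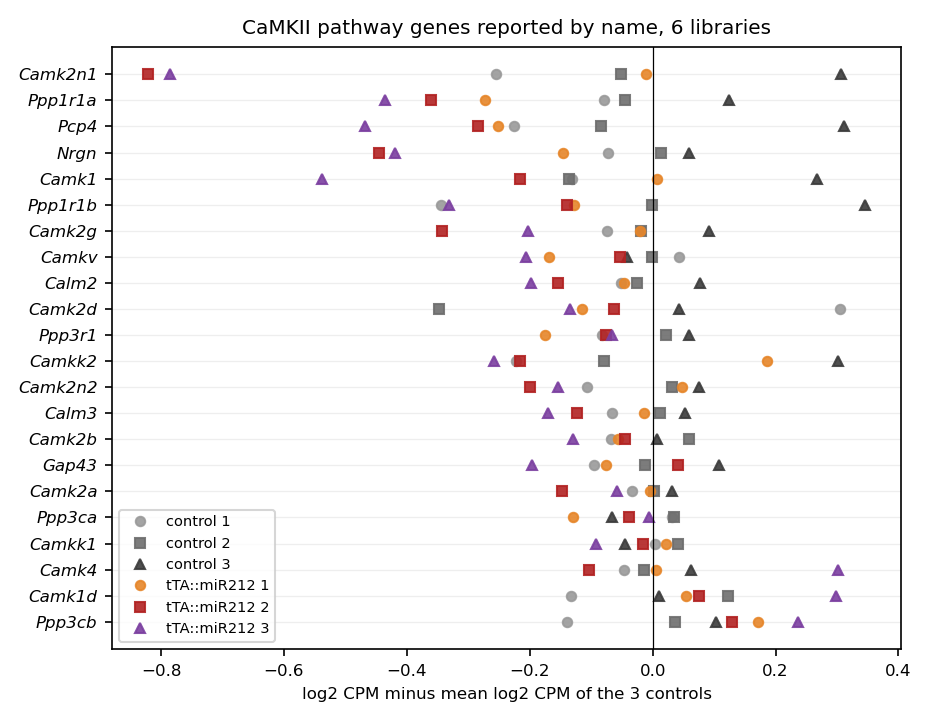
Log2 CPM of each library minus the mean log2 CPM of the 3 controls for 22 of the 23 measured genes of the CaMKII, calmodulin and neurogranin list, ordered by log2 fold change, 1 point per library. For Camk2n1 transgenic libraries 2 and 3 lie far below transgenic library 1, and for Nrgn all 3 lie below the controls.

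Immediate early genes, which neurons transcribe within minutes of activity, differed among the transgenic libraries more than between the groups. Fos had 166, 28.2 and 17.4 CPM in the transgenic and 68.2, 75.0 and 71.8 CPM in the control libraries. Library 1 lay above every control and libraries 2 and 3 below, and the same held for Arc (802, 242 and 185 against 514, 514 and 429.9 CPM), the synaptic effector of this programme. Npas4, which recruits inhibitory synapses, had 89.0, 19.2 and 10.7 against 27.9, 39.4 and 48.9 CPM, Nr4a1, an orphan receptor gene, 315, 78.7 and 73.0 against 187, 209 and 152 CPM, and Junb, a partner of Fos, 201, 67.8 and 42.8 against 107, 119.9 and 110.0 CPM. Of the 22 measured genes, 18 lay above all 3 controls in transgenic library 1, where 23.8% of all genes did so and 24.3% lay below them. In transgenic library 2, 19 lay below all 3 controls (27.2% of all genes, with 28.0% above), and in transgenic library 3, 17 did (32.0% of all genes, with 32.7% above).

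The group comparison of these genes depended on which libraries were included. As deposited, 18 of 22 lay below 0 with a median of -0.16, and Rheb alone had an unadjusted p under 0.05 (-0.31 on the log2 scale, 66.7, 59.5 and 70.9 against 75.6, 93.6 and 74.8 CPM). Without transgenic library 2 the count below 0 was 7 of 22 and the median 0.08. Without transgenic library 3 it was 10 and the median 0.01, and without transgenic library 1 it was 19 and the median -0.56. In that last fit edgeR called 18 genes (0.390% of those tested), among them Arc (-1.18, adjusted p = 0.000335) and Nr4a1 (-1.27, adjusted p = 0.000335), against 0 with all libraries. Of the genes beyond this list that were then called, Nrgn (-0.43, adjusted p = 0.00862), Cabp1 (-0.88, adjusted p = 0.014) and Stx1a (-0.62, adjusted p = 0.0358) were lower and Lrrn2 (0.59, adjusted p = 0.00669), Slc6a11 (0.49, adjusted p = 0.0272) and Aqp4 (0.75, adjusted p = 0.0438) higher. Summed over the list, the transgenic libraries had 4369, 1966 and 2142 CPM and the controls 3014, 3292 and 3019. The cortical markers given above, Nr4a2 among them, were also lowest in transgenic library 2 and, at 524 CPM, below the controls in library 3. Those of choroid plexus were lowest in library 2 and within the controls in library 3. Their part in these values was not tested.

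Klf6, Nr4a2 and Nr4a3 lay above every control in transgenic library 3. Klf6, a zinc finger gene, had 55.2, 51.8 and 75.0 against 47.0, 44.9 and 45.1 CPM and was above every control in each transgenic library (0.41 (SE 0.21, edgeR adjusted p = 0.9)). Nr4a2 had 70.6, 53.1 and 92.4 against 81.4, 69.6 and 67.2 CPM, with transgenic library 3 the highest of all 6. Its relative Nr4a3 had 156, 114 and 134 against 127, 119.9 and 105 CPM (0.20), above every control in transgenic libraries 1 and 3 and among them in library 2. Jun had 212, 208 and 186 against 184, 182 and 192 CPM, close to level.

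CREB binds the cAMP response element, whose full form TGACGTCA reads the same on both strands. Promoter sequences (RefSeq, build GRCm38.p6, 250 bases before to 50 after the start of a gene) were matched for 18 of the 22 immediate early genes, and 2 of their 21 promoters held it, where 1.79% of all 32851 promoters did. Those of Btg2 and Dusp1, which were high and low in the same transgenic libraries as Fos, are shown over the 250 bases before the start, on the strand of the gene, with the element in capitals.
Btg2: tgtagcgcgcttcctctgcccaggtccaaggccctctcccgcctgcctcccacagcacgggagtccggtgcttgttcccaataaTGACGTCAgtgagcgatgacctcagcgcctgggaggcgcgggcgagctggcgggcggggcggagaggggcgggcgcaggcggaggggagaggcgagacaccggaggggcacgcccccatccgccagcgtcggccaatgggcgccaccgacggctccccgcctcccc
Dusp1: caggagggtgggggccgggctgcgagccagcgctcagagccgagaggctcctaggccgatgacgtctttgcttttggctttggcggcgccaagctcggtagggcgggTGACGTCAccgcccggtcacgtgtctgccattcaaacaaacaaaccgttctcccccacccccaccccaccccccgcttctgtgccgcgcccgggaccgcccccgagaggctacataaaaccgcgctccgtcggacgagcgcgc
They lie at chr1:134079156-134079405 and chr17:26508473-26508722, both on the minus strand. Btg2, which restrains proliferation, had 87.4, 26.9 and 22.1 against 41.1, 27.1 and 42.0 CPM, and Dusp1, a phosphatase of the MAP kinases, 96.7, 35.8 and 34.1 against 63.8, 57.2 and 57.3 CPM. In transgenic library 2 Btg2 was level with control library 2, unlike Fos and Dusp1. A match describes these letters only and is no measured binding.

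**Figure D4:**
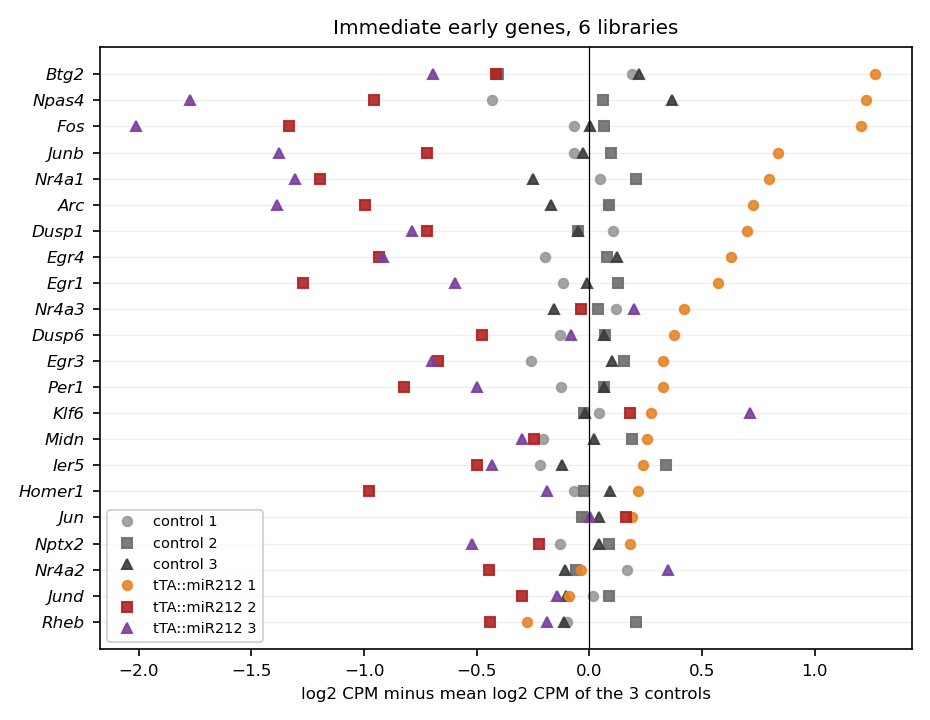
Log2 CPM of each library minus the mean log2 CPM of the 3 controls for the 22 measured immediate early genes, ordered by transgenic library 1, 1 point per library. For Btg2, Npas4 and Fos transgenic library 1 lies above the controls, and for Fos libraries 2 and 3 lie far below them.

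Genes that corticosteroids induce included some of the lower ones. Sgk1, a kinase gene induced through the glucocorticoid receptor (chr10:21601990-21719709, plus strand), had 83.6, 53.7 and 81.7 CPM against 103, 128 and 99.3 (-0.60 (SE 0.16, edgeR adjusted p = 0.715)), with transgenic library 2 lowest. Tsc22d3, the gene of the glucocorticoid-induced leucine zipper, had 78.2, 48.6 and 79.0 against 82.2, 112 and 123 CPM (-0.63 (SE 0.20, edgeR adjusted p = 0.802)), and again library 2 was lowest and no group overlapped. The metallothionein gene Mt1 had 271, 238 and 231 against 292, 308 and 255 CPM and its neighbour Mt2 187, 187 and 195 against 214, 237 and 197 CPM. In contrast Nr3c2, which encodes the mineralocorticoid receptor, had 206, 234 and 239.6 against 204, 203 and 161 CPM (0.26 (SE 0.10, edgeR adjusted p = 0.819)), and the glucocorticoid receptor gene Nr3c1 156, 153 and 149 against 153, 114 and 137 CPM. Fkbp5, a chaperone gene and standard marker of receptor activity, had 88.2, 89.6 and 95.7 against 96.8, 92.0 and 77.9 CPM, without a difference beyond the spread.

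In all, 9 of the 13 measured genes of the corticosteroid list (23 listed) lay below 0, with a median of -0.16. At an unadjusted p under 0.05, 3 were lower and 1 higher, where 3.14% of all genes were lower and 2.51% higher in this way. The lower ones numbered 2 to 4 and the higher ones 0 to 2 with 1 library left out. In those fits 66 to 271 of all 4618 genes were lower and 62 to 203 higher. Without transgenic library 2 the median was -0.04, with 9 below 0 as before. Sgk1 and Tsc22d3 showed values below every control in transgenic library 1 as well, which was the library high in immediate early genes. Of the clock genes, Bhlhe40, a repressor that answers both light and neuronal activity, had 143, 129 and 116 against 146, 186 and 183 CPM (-0.41 (SE 0.12, edgeR adjusted p = 0.715)), with library 1 just below control library 1. Its relative Bhlhe41 had 61.4, 46.7 and 66.9 against 68.2, 68.1 and 77.9 CPM. In the clock list 10 of 14 measured genes lay below 0, with a median of -0.08, and Bhlhe40 alone had an unadjusted p under 0.05.

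Of 22 measured reported targets of miR-132 and miR-212 (39 listed), 15 lay above 0, with a median of 0.07, and none was lower at an unadjusted p under 0.05, where 3.14% of all genes were. The direction did not hold with Xist as a covariate, where 10 lay above 0 and 12 below, with a median of -0.0077. In that fit 2 were lower and 2 higher at that threshold, where 223 and 156 of all 4618 genes were. Every transgenic Xist value lay below every control, so the fit cannot fully separate Xist from genotype. Without transgenic library 1 there were 2 lower and 5 higher, where 5.87% of all genes were lower and 4.40% higher. In the fit of all libraries 2 were higher at that threshold, where 2.51% of all genes were. These were Usp9x, a deubiquitinase gene, at 206, 189 and 257 against 177, 172 and 190.1 CPM (0.28 (SE 0.11, edgeR adjusted p = 0.834)), and Ache, the acetylcholinesterase gene, at 86.7, 129.9 and 90.4 against 77.8, 88.9 and 69.5 CPM (0.39 (SE 0.16, edgeR adjusted p = 0.843)). In both genes the groups overlapped, Usp9x was highest in transgenic library 3 and Ache in library 2. Ep300, a coactivator of CREB, had 134, 115 and 151 against 122, 126 and 125 CPM, and Mapt, the tau gene, 922, 907 and 924 against 875, 896 and 977 CPM. Foxo3, a stress-response transcription factor gene, had 188, 134 and 171 against 151, 153 and 163 CPM. Arhgap32, the gene of the GTPase-activating protein p250GAP that miR-132 is known to repress in neurons, had 375, 241 and 328 against 314, 292 and 411 CPM, with transgenic library 2 lowest and control library 3 highest.

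The 8 reported targets whose GENCODE M1 transcript holds an 8mer for the shared seed all lay above 0. They ran from 0.07 (Foxo3) to 0.28 (Usp9x), with a median of 0.13. They include the 6 shown above and Paip2, at 0.10. Among the other reported targets with the most negative values, Camk2n1 had -0.51 and the transcription factor gene Mef2c -0.20 (SE 0.40), with 219, 83.2 and 124 against 147, 148 and 189 CPM, again high in transgenic library 1 only. Without transgenic library 1, 7 of the 8 lay above 0, with a median of 0.19, and without transgenic library 3 also 7, with a median of 0.04. With Xist as a covariate, which cannot be fully separated from genotype, 7 lay above 0, with a median of 0.22. For all 22 targets, those above 0 numbered 11 without transgenic library 1, 12 without library 3 and 18 without library 2.

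Genes with a seed match lay on both sides of 0, as did those without. A 3′ untranslated region was found for 4233 of the kept transcripts, of which 141 held an 8mer for miR-212-3p, a further 502 a 7-base match to bases 2 to 8 (7mer-m8) and 315 a match to bases 2 to 7 followed by A (7mer-A1). The median log2 fold change was 0.00368 for genes with an 8mer, 0.0192 for the 7mer-m8 genes, -0.00135 for the 7mer-A1 genes and 0.00291 for the 3275 genes with none. Genes below 0 made up 48.9% of those with an 8mer, 44.2% of those with a 7mer-m8 and 48.9% of those without a match. With an 8mer, 3 of 141 genes were lower and 3 higher at an unadjusted p under 0.05. For the 5p arm, 204 genes held an 8mer, with a median of 0.0161. Messages with a match had longer untranslated regions (median of 2860 bases with an 8mer, 1260 with none). Over the other ways of fitting, the median of the 8mer genes for miR-212-3p ran from -0.0124, without transgenic library 1, to 0.0454.

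**Figure D5:**
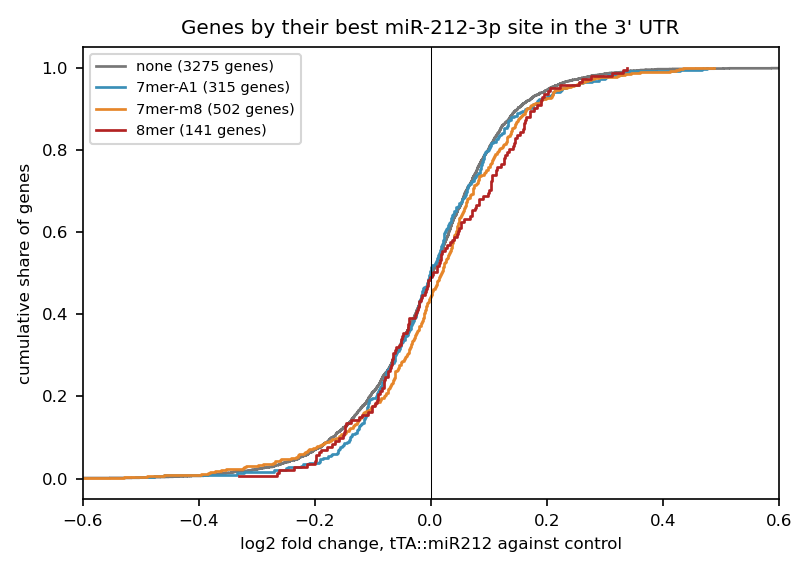
Cumulative share of genes (vertical axis) against their log2 fold change in tTA::miR212 (horizontal axis), by the best match to the miR-212-3p seed in the 3′ untranslated region. The curves of the 141 genes with an 8mer, the 502 with a 7mer-m8, the 315 with a 7mer-A1 and the 3275 with none cross 0 near the middle of the vertical axis.

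Among the 5 genes of small p with a match in GENCODE M1, shown above, Hrk (0.43), C530008M17Rik (0.34) and Synm (0.36) were higher. Prosapip1 (-0.49) and Sgk1 (-0.60) were lower. C530008M17Rik alone of the 5 holds an 8mer, and both matches of Synm lie beyond the deposited span of its transcript. Genes of the machinery that makes and uses microRNAs lay on both sides of 0. Of its 15 measured genes 7 lay above 0 and none had an unadjusted p under 0.05. Dicer1, which cuts hairpins, had a mean of 99.4 ± 15.4 against 101 ± 6.07 CPM (SD, n = 3 each), and the Argonaute gene Eif2c3 92.1, 96.0 and 97.7 against 114, 111 and 103 CPM, the only one of these genes whose groups did not overlap.

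Of 22 measured astrocyte markers 13 lay above 0. At an unadjusted p under 0.05, 3 were higher (Gfap, Aqp4 and Gja1) and 0 lower, where 2.51% of all genes were higher. Vim and Synm, given with them, belong to the list of cytoskeleton and intermediate filament genes. Gfap, the main filament of reactive astrocytes, had 636, 691 and 839 CPM against 600.1, 610.1 and 482 (0.36 (SE 0.12, edgeR adjusted p = 0.819)), Vim, the vimentin gene, 63.7, 66.5 and 84.3 against 55.8, 58.0 and 41.2 CPM (0.47 (SE 0.18, edgeR adjusted p = 0.819)) and Synm, whose product synemin joins them in filaments, 136, 134 and 141 against 112, 101 and 106 CPM (0.36 (SE 0.10, edgeR adjusted p = 0.715)). Aqp4, the water channel of astrocytic endfeet, had 87.4, 109 and 137 against 75.6, 84.3 and 59.6 CPM (0.61 (SE 0.17, edgeR adjusted p = 0.715)) and the gap junction gene Gja1 301, 337 and 396 against 279.5, 293 and 286 CPM (0.27 (SE 0.09, edgeR adjusted p = 0.802)). In each of these genes the transgenic values lay above every control, transgenic library 3 was highest and, except for Synm and Gja1, control library 3 lowest. Of the 22 markers, 9 lay below 0. In 4 the transgenic values lay above every control and in 2 below, where 5.46% and 5.93% of all genes did so. Slc1a3, Apoe, S100b and Aldh1l1 had log2 fold changes of -0.00, -0.01, 0.05 and 0.03. Gjb6 had the lowest of the list (-0.21), at 64.4, 55.0 and 68.9 against 68.2, 90.5 and 59.6 CPM, with overlapping groups. Aldoc, at 950.4, 907 and 904 against 996, 966 and 978 CPM, lay below every control. The 22 measured markers had a median of 0.03 and summed to 17384, 16504 and 19067 CPM against 17386, 17417 and 16990.4. Of the neurofilament genes, Nefl had 0.02, Nefm 0.01 and Nefh 0.06.

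Of 23 measured genes of dense-core vesicles and neuropeptides, 5 were lower and 0 higher at an unadjusted p under 0.05, where 3.14% of all genes were lower in this way. The median of the list was -0.01. Beside Ptprn2 and Cyb561 these were Sst, the somatostatin gene of a class of interneurons, with 272, 218 and 195 against 257, 284 and 292 CPM (-0.28 (SE 0.11, edgeR adjusted p = 0.819)), Nptx1, a pentraxin gene that clusters AMPA receptors, with 708, 685 and 799 against 834, 827 and 820.1 CPM (-0.18 (SE 0.07, edgeR adjusted p = 0.819)), and Vgf, a neuropeptide precursor gene that neurotrophins induce, with 463, 492 and 398 against 509, 507 and 538 CPM (-0.20 (SE 0.08, edgeR adjusted p = 0.843)). Ptprn, the close relative of Ptprn2 on the same vesicles, had 685, 691 and 618 against 682, 657 and 674 CPM. The granin and processing genes Chga (0.04), Chgb (0.04), Cpe (-0.00) and Pcsk2 (-0.09) also lay close to 0. Leaving out control library 2 brought the 5 lower genes to 2, and leaving out transgenic library 1 brought them to 6. In those fits 119 and 271 of all 4618 genes were lower at that threshold.

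At synapses, genes of the active zone and of vesicle fusion went in both directions. Of 53 measured vesicle and release genes 33 lay below 0 (median -0.04). Syt2, a fast calcium sensor, had 57.5, 51.8 and 70.3 against 71.2, 77.3 and 106 CPM (-0.50 (SE 0.17, edgeR adjusted p = 0.802)), like Doc2b lower in every transgenic library. The active zone scaffold genes Pclo, with 614, 597 and 734 against 555, 559.9 and 586 CPM (0.19 (SE 0.08, edgeR adjusted p = 0.843)), and Erc1, with 139, 147 and 155 against 128, 127 and 123 CPM (0.22 (SE 0.10, edgeR adjusted p = 0.876)), were higher in each, as was Amph (0.25), which acts in vesicle retrieval. Without transgenic library 1, 8 of the 53 were lower and 4 higher at an unadjusted p under 0.05, where 5.87% of all genes were lower and 4.40% higher, against 2 and 3 genes of the list with all libraries.

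Of 20 measured genes of GABA receptors and inhibitory synapses, 12 lay above 0 and 8 below, with a median of 0.05. Gabra2, a subunit gene of the GABA-A receptor, had 85.1, 116 and 118 against 82.2, 80.4 and 50.4 CPM (0.59 (SE 0.18, edgeR adjusted p = 0.802)), with control library 3 lowest. Among glutamate receptors, the NMDA receptor subunit gene Grin3a had 0.32, with overlapping groups. The scaffold genes Dlg1 (130.4, 114 and 108 against 147, 139 and 134 CPM), Baiap2 (390.5, 358 and 361 against 411, 402 and 437 CPM) and Kalrn (878, 776 and 842 against 888, 933 and 935 CPM) lay below every control. The AMPA receptor gene Gria2 had 782, 869 and 719 against 839, 827 and 835 CPM. In all, 25 of 45 glutamate receptor and scaffold genes lay above 0.

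Of 56 measured voltage-gated channel genes, 2 were lower and 1 higher at an unadjusted p under 0.05, shares near those of all genes (3.14% and 2.51%). In 3 the transgenic values lay below every control, where 5.93% of all genes did so. Of the 56, 38 lay below 0, with a median of -0.06, but 29 without transgenic library 2 and control library 3, with a median of -0.0085. Kcnip3, which encodes the channel partner and calcium-dependent repressor DREAM, had 152, 145 and 161 against 169, 200.3 and 203 CPM (-0.32 (SE 0.10, edgeR adjusted p = 0.802)). The sodium channel subunit gene Scn3b had 0.21. Myelin genes had a median of 0.06 over 21 measured markers, with Mobp lower, at 410.4, 388 and 416 against 460.0, 498 and 437 CPM (-0.20 (SE 0.08, edgeR adjusted p = 0.819)). The microglial receptor gene Cx3cr1 had 114, 83.2 and 101 against 79.2, 71.1 and 89.3 CPM (0.31 (SE 0.14, edgeR adjusted p = 0.874)), among only 4 measured microglial markers.

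Markers of hippocampal fields differed gene by gene. In CA1 neurons 6 of 7 measured markers lay below 0, Nov with 171, 151 and 154 against 188, 194 and 203 CPM and Mpped1 with 319, 279.6 and 296 against 319, 333 and 376 CPM. Nov lay below every control, and transgenic library 1 was level with control library 1 for Mpped1. In the dentate gyrus 5 of 7 lay below 0, of which Dsp alone had an unadjusted p under 0.05. The CA2 and CA3 markers went both ways, with Spock1 (0.21) and Cpne4 (0.26) higher and Pcp4 (-0.35) and Adcy1 (-0.16) lower. Of excitatory neuron markers, Itpka, an inositol kinase gene of spines, had 334, 287 and 257 against 370.5, 339 and 334 CPM (-0.25 (SE 0.09, edgeR adjusted p = 0.819)).

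All 7 measured markers of thalamus and habenula lay above 0, with a median of 0.51. The size of this median rested largely on transgenic library 2, without which it was 0.16. It was 0.10 without that library and control library 3. In both of these fits all 7 markers still lay above 0. Zic1 had the largest log2 fold change of the list (1.37 (SE 0.45, edgeR adjusted p = 0.819)) and was above the controls in each transgenic library. Its value in transgenic library 3 was also above the controls although Prkcd and Slc17a6 there (31.5 and 39.5 CPM) were close to the highest controls (29.3 and 40.3 CPM).

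Libraries of the transgenic group varied more than controls. The SD of log2 CPM over 3 libraries had a median of 0.126 in the transgenic and 0.103 in the control group, and it was the larger one in the transgenic group for 2756 genes (59.7%). It exceeded 1 for 11 genes in transgenic libraries, led by Tsix, Xist, Ttr, Kl and Fos, and for Scn4b alone in controls. Pairs of control libraries differed by a chi-square of 1.39 to 2.27 per degree of freedom and pairs of transgenic ones by 3.35 to 5.33. No pair was thus an identical copy. Whether a pair came from 1 library sequenced again cannot be told from this, because amplified reads understate the counting error. Of 144 X-linked genes, 8 (5.56%) had an unadjusted p under 0.05, close to the 5.65% of all genes. Ddx3x, an RNA helicase gene that escapes X inactivation, had 252, 279.6 and 258 against 285, 329 and 302 CPM (-0.21 (SE 0.08, edgeR adjusted p = 0.819)), and Kdm5c, another such gene, 95.9, 128 and 115 against 113, 145 and 128 CPM.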

How the data were processed

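Polyadenylated RNA of hippocampus was sequenced in 3 tTA::miR212 and 3 control samples. Reads had been aligned to mm9 with Bowtie 0.12.7, per the series design text and the submitters' processing notes. The counting tool, gene annotation and filter are not stated in what was available here. The deposited values are raw counts, whole numbers per Ensembl transcript, per the file headers. The authors' fold changes, p and q were not used, nor were 6 columns of normalized values. Of the gene symbols, 3 are written as dates.

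Per symbol, the transcript highest in mean count was used, and groups were compared in R 4.3.3 with edgeR 4.0.16 (quasi-likelihood test, TMM factors, filterByExpr, robust estimation, Benjamini-Hochberg over 4618 genes, threshold 0.05). The log2 fold changes and SE come from that fit, and the test was checked on simulated data. Alternatives used DESeq2 1.42.0, limma 3.58.1 (voom), other scaling factors and filters, other transcript choices, Xist as a covariate, the library number as a block, and each library left out. The biological coefficient of variation was 8.58%. Replicates are pools of animals, so p-values measure the spread between pools. Taken alone, counts of amplified reads without molecular identifiers understate the counting error. The fits estimate the spread from the replicate libraries.

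Named genes were the 15 higher and 15 lower with the smallest p, and members of 36 gene lists. Members and lists were chosen with earlier results of these data known, so list counts are descriptions without a test. Some members counted in the lists are not reported by name here. Seed matches were searched in GENCODE M1 transcripts, where 4289 of the kept transcripts were found.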

Additional observations from a re-analysis of the deposited data

How the results depend on the processing

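Against 0 genes called with all libraries, edgeR called 18 without transgenic library 1 (leaving out each library in turn gave 0 to 18). With Xist as a covariate it called 4 (Egr1 and Per1 lower, Zic1 and Lrrn2 higher). Xist was lower in every transgenic library than in any control, so that fit cannot fully separate Xist from genotype. With the library number as a replicate block edgeR called 1, Ptprn2 (adjusted p = 0.00186). Same-numbered libraries correlated at -0.0699, 0.021 and -0.0321 in their deviations from the group means, so the numbers do not pair them. The 261 genes at an unadjusted p under 0.05 became 116 with DESeq2, 554 of 11706 with all transcript entries, 145 without transgenic library 2 and control library 3 together (chosen after seeing the data) and 128 (without control library 3) to 474 (without transgenic library 1) with 1 library left out. The 526 genes whose groups did not overlap became 1300 with all transcript entries, 1564 without transgenic library 2 and control library 3, and 874 to 1257 with 1 library left out, where fewer samples have to be apart. The cause of the other shifts was not tested.

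For 71 single genes, 1268 of 1277 alternative values kept direction and side of the threshold, 9 became called and 0 reversed. These genes were chosen for a small p in the fit of all 6 libraries, and the alternatives refit the same libraries. Kept directions are therefore no independent check. As none was called in that fit, keeping the side of the threshold means that a gene stayed uncalled. Of 612 alternative medians of 34 lists, 43 moved by more than the SD of the list's median over the 3 transgenic libraries. This cutoff is wide where those libraries differ most. For the immediate early genes, the shift from -0.16 to -0.56 without transgenic library 1 did not count as moved. Genes with counts too low for the authors' list are not covered.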
